A study of Mus musculus with 12 samples.

Results

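The 30 genes described here encode proteins of cornification, the programme by which keratinocytes of the outer skin flatten, crosslink their contents and are shed, and they mark the keratinized, cornifying mimetic cells of the thymic medulla. They were taken as a list of mouse symbols, which was chosen with earlier results of these data known. All 30 were found among the 27179 genes counted in each library, of which 25275 have a symbol. RNA was sequenced from 12 libraries of flow-sorted thymic epithelial cells of C57BL/6 mice, 3 in each of 4 groups. These were medullary cells with high MHC class II (mTEChi) lacking HOIL, control mTEChi, cortical cells (cTECs) lacking HOIL and control cTECs. HOIL-deficient mice carried a Foxn1-Cre allele and floxed Hoil on both chromosomes (Foxn1creT/+ HOILlox/lox). Control mice carried the same floxed alleles without Cre (Foxn1cre+/+ Hoillox/lox), although their sample labels call them wild type. The Foxn1 promoter drives Cre in thymic epithelium, so control mice do not show the effect of Cre itself. Replicate 3 of each HOIL-deficient group came from a female and the other 10 libraries from males. The labels give no ages and do not say whether animals were pooled.

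Medullary thymic epithelial cells display proteins of other tissues to developing T cells, so that T cells reactive to them can be removed or diverted. Part of this display comes from mimetic cells, medullary cells that take on the gene programme of a peripheral cell type such as a keratinocyte, a tuft cell or a muscle cell. Keratinized medullary cells arise largely after Aire has been expressed and lose surface MHC class II as they mature, and in mice they contribute to structures that resemble Hassall's corpuscles. A sort for high MHC class II therefore keeps their most mature forms only in part. HOIL-1, the product of Rbck1, belongs to the linear ubiquitin chain assembly complex, which relays signals of the TNF receptor family to NF-kB.

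Library totals ranged from 7941217 to 14274333 counts, and levels are given as CPM, counts scaled to a library total of 1000000, for replicates 1, 2 and 3 in that order. Rbck1 checks the genotype labels: it was at 10.9 to 23.3 CPM in HOIL-deficient mTEChi against 108 to 128 CPM in control mTEChi, and at 22.0 to 33.0 CPM in HOIL-deficient cTECs against 183 to 236 CPM in control cTECs. The medullary regulators Aire and Fezf2 checked the sort. Aire was at 783 to 1016 CPM in HOIL-deficient mTEChi and at 577 to 969 CPM in control mTEChi, against at most 1.66 CPM in any cTEC library. Fezf2 was at 584 to 679.7 CPM in HOIL-deficient mTEChi and at 311 to 393 CPM in control mTEChi, against at most 2.84 CPM in any cTEC library. RNA composition differed within the mTEChi: mitochondrial transcripts held 1.71 to 1.91% of counts in the HOIL-deficient libraries and 3.19 to 8.93% in the control libraries, with the highest share in control replicate 1. The nuclear RNA Malat1 held 0.713 to 0.983% of counts in HOIL-deficient mTEChi and 3.29 to 5.13% in control mTEChi. The part of these differences in the results that follow was not tested.

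Several promoters of cornification genes that hold TATAAA are shown. The same short elements recur in genes that were called lower in HOIL-deficient mTEChi and in genes that were not called. RefSeq promoters were given for 23 of the 30 genes on GRCm38.p6, and the 120 bases before the annotated transcript start are printed 5′ to 3′ on the strand of the gene. Capitals mark TATAAA, the core of a TATA box, and TGANTCA, with N any base, which includes the AP-1 core TGAGTCA or TGACTCA but is wider. In Krtdap alone they also mark a match of the NF-kB type, GGGA, any 4 bases and CC. The first 4 belong to genes that were lower in HOIL-deficient mTEChi: Lor at chr3:92083143-92083262 (minus strand), Krtdap at chr7:30787785-30787904 (plus strand), Dapl1 at chr2:59484533-59484652 (plus strand) and Krt10 at chr11:99389365-99389484 (minus strand). The last 3 belong to cornified envelope genes that did not pass the test there: Ivl at chr3:92573736-92573855, Sprr1a at chr3:92485882-92486001 and Sprr1b at chr3:92438780-92438899, all on the minus strand.
Lor: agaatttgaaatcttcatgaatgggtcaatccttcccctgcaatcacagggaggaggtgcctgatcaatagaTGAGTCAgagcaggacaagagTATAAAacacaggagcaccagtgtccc
Krtdap: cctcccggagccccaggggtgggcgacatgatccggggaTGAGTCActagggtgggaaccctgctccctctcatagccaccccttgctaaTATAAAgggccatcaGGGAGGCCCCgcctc
Dapl1: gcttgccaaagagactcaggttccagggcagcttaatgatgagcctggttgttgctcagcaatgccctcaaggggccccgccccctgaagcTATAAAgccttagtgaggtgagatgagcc
Krt10: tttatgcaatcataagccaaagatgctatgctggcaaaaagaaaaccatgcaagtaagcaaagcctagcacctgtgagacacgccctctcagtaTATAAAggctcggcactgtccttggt
Ivl: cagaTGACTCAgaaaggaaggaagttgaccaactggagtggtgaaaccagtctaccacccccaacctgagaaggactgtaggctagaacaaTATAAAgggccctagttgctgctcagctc
Sprr1a: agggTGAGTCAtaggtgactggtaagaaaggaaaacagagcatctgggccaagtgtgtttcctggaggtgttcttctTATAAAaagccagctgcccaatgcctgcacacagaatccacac
Sprr1b: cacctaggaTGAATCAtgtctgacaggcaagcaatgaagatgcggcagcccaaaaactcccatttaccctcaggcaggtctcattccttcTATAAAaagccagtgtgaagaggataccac

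Both strands of the 250 bases before the start were searched for 4 motifs. TATAAA was found in 11 of the 23 genes (47.8%), against 14.3% of the 27025 genes with a promoter in the table. In 7 of them, Dapl1, Ivl, Krt10, Krtdap, Lor, Ly6g6c and Sprr1b, the match began 26 to 30 bases before the start, the usual distance of a TATA box. TGANTCA, a pattern that is its own reverse complement, was found in 10 of 23 (43.5%), against 7.82% of all genes. In Flg, Flg2, Sbsn, Serpinb12 and Sprr1b the only match was TGAATCA or TGATTCA, which differ from the AP-1 core in the middle base. The NF-kB type was found in 7 of 23 (30.4%), against 19.7% of all genes, and AACNGGTT, the type of site that Grainyhead-like factors bind, in 0 of 23, against 2.00% of all genes. No match of one motif overlapped a match of another in these genes. A match is a description of letters and not of a bound site.

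**Figure D1:**
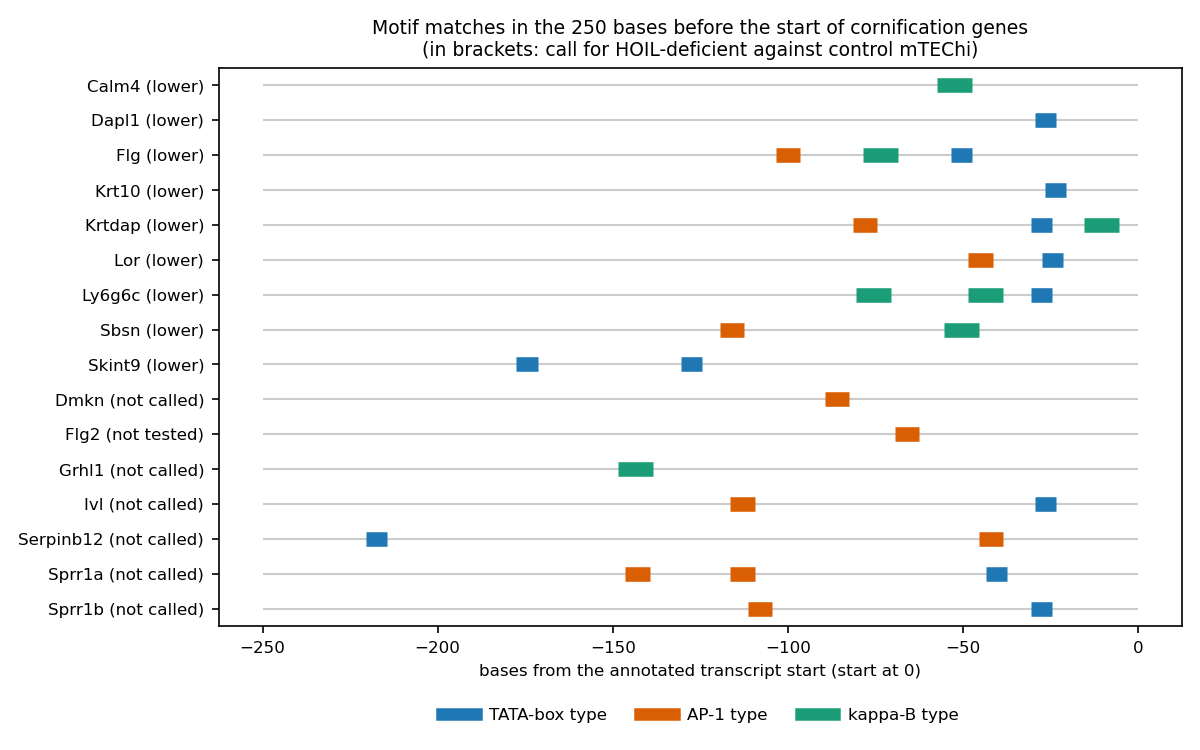
Position of motif matches in the 250 bases before the transcript start of the cornification genes that had any match; the x axis is the distance from the start in bases, coloured bars are matches (blue TATAAA, orange TGANTCA, green the NF-kB or kappa-B type) and the call in brackets is that of HOIL-deficient against control mTEChi. For a gene with several annotated promoters the 1 with the lowest coordinate is drawn. TATAAA lies close to the start in genes called lower (Dapl1, Krt10, Krtdap, Lor, Ly6g6c) and in genes not called (Ivl, Sprr1b).

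In control mTEChi the 30 genes spanned a wide range of levels, which are compared here per length as RPKM, CPM per kilobase of counted gene length. Ly6d, a small membrane-anchored LY6 protein found on keratinocytes, led with 849.8 ± 44.4 RPKM (SD, n = 3). Dapl1 followed with 264 ± 151 RPKM and Krtdap with 252 ± 106 RPKM, which did not differ beyond their spread, and then Sprr1a with 178 ± 18.2 RPKM. At the low end stood Flg with 1.28 ± 0.380 RPKM, Dsc1 with 0.265 ± 0.233 RPKM and Flg2 with 0.184 ± 0.0685 RPKM, of which the last 2 did not differ beyond their spread. Genes differed in how steady they were among the control libraries. The standard deviation was 3.80% of the mean for Serpinb12, 4.90% for Skint9 and 5.23% for Ly6d, but 61.1% for Krt10, 57.1% for Dapl1 and 54.4% for Lor. Control replicate 1 was the highest of the 3 libraries for 14 of the 30 genes and the lowest for another 14. It was the highest for 12 of the 16 genes that were called lower in HOIL-deficient mTEChi and the lowest for 10 of the 13 that were not called. The 16 genes summed to 2521 CPM in control replicate 1, against 1721 and 1935 CPM in replicates 2 and 3, and the 13 genes to 687 CPM, against 818 and 799.6 CPM. This library also had the highest mitochondrial and Malat1 shares, and their part in these sums was not tested.

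**Figure D2:**
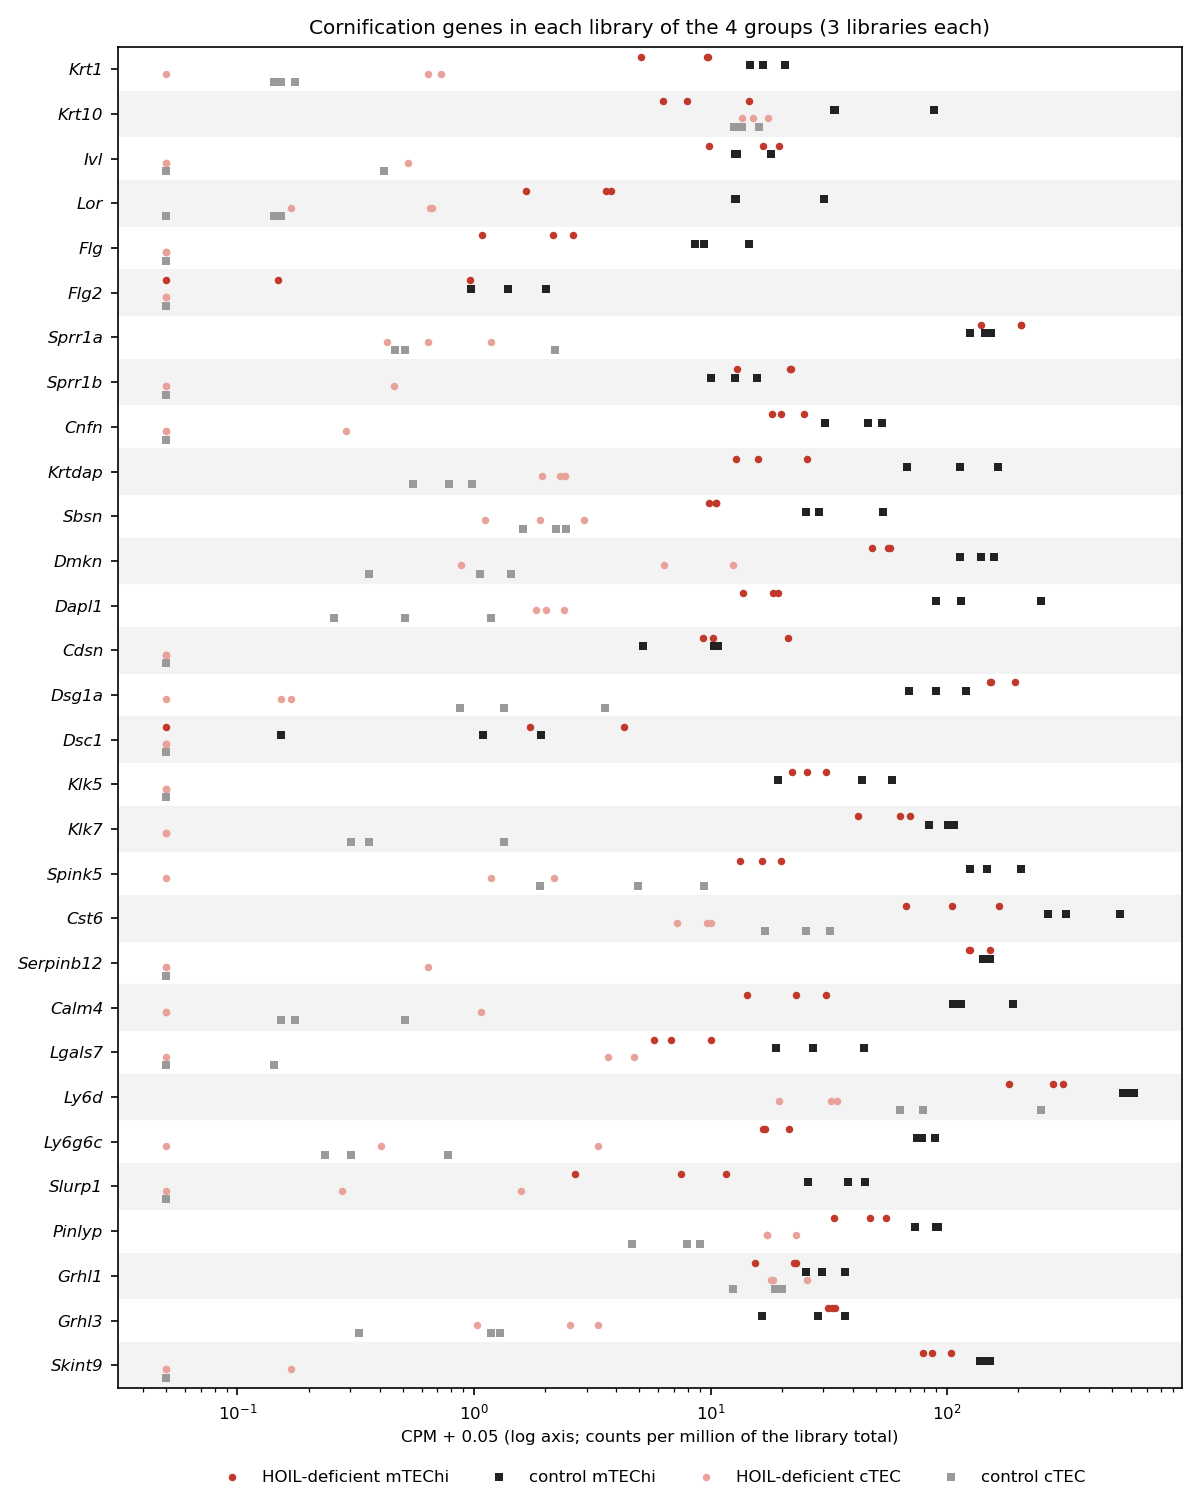
Level of each of the 30 genes in each library, as CPM + 0.05 on a log axis, with 1 row per gene and 1 point per library. Dark points are mTEChi and pale points cTECs; circles are HOIL-deficient and squares control. Points at the left edge are at 0 counts. Spink5, Dapl1, Krtdap and Calm4 show HOIL-deficient mTEChi clear of control mTEChi, while Sprr1a, Ivl and Serpinb12 overlap.

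In HOIL-deficient mTEChi 16 cornification genes were lower than in control mTEChi, among them Krt10, Lor, Flg, Krtdap, Dapl1, Spink5 and Calm4, while Sprr1a, Sprr1b, Ivl, Serpinb12 and the desmosomal genes were not called. Of the 30 genes, 29 passed the filter on low counts; 0 were higher, 16 were lower and 13 did not pass the test of edgeR (quasi-likelihood, adjusted p under 0.05 over all 19398 tested genes). Over all tested genes 19.9% were called, 11.3% higher and 8.59% lower (2191 and 1667 genes; 1748 and 1973 with RLE scaling, 1708 and 1979 with upper-quartile scaling). Of the cornification genes, 1 had a positive change at an unadjusted p under 0.05, and DESeq2 called 0 higher and limma-voom 1, Dsg1a. The filter did not fix this contrast, since 28 of the 30 genes passed its minimum in every library of HOIL-deficient mTEChi and 28 in every library of control mTEChi. The median log2 fold change of the 29 was -1.17, with a range of -3.34 to 0.97, and that of all tested genes was -0.03. All 3 HOIL-deficient libraries lay below all 3 control libraries for 20 of the 29 tested genes and above them for 1, Dsg1a, against 20.6% and 23.8% of all tested genes. Together the 30 genes held 1189 to 1531 CPM in HOIL-deficient mTEChi and 2541 to 3209 CPM in control mTEChi. In bulk RNA, fewer cells of a type and less RNA per cell cannot be told apart.

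**Figure D3:**
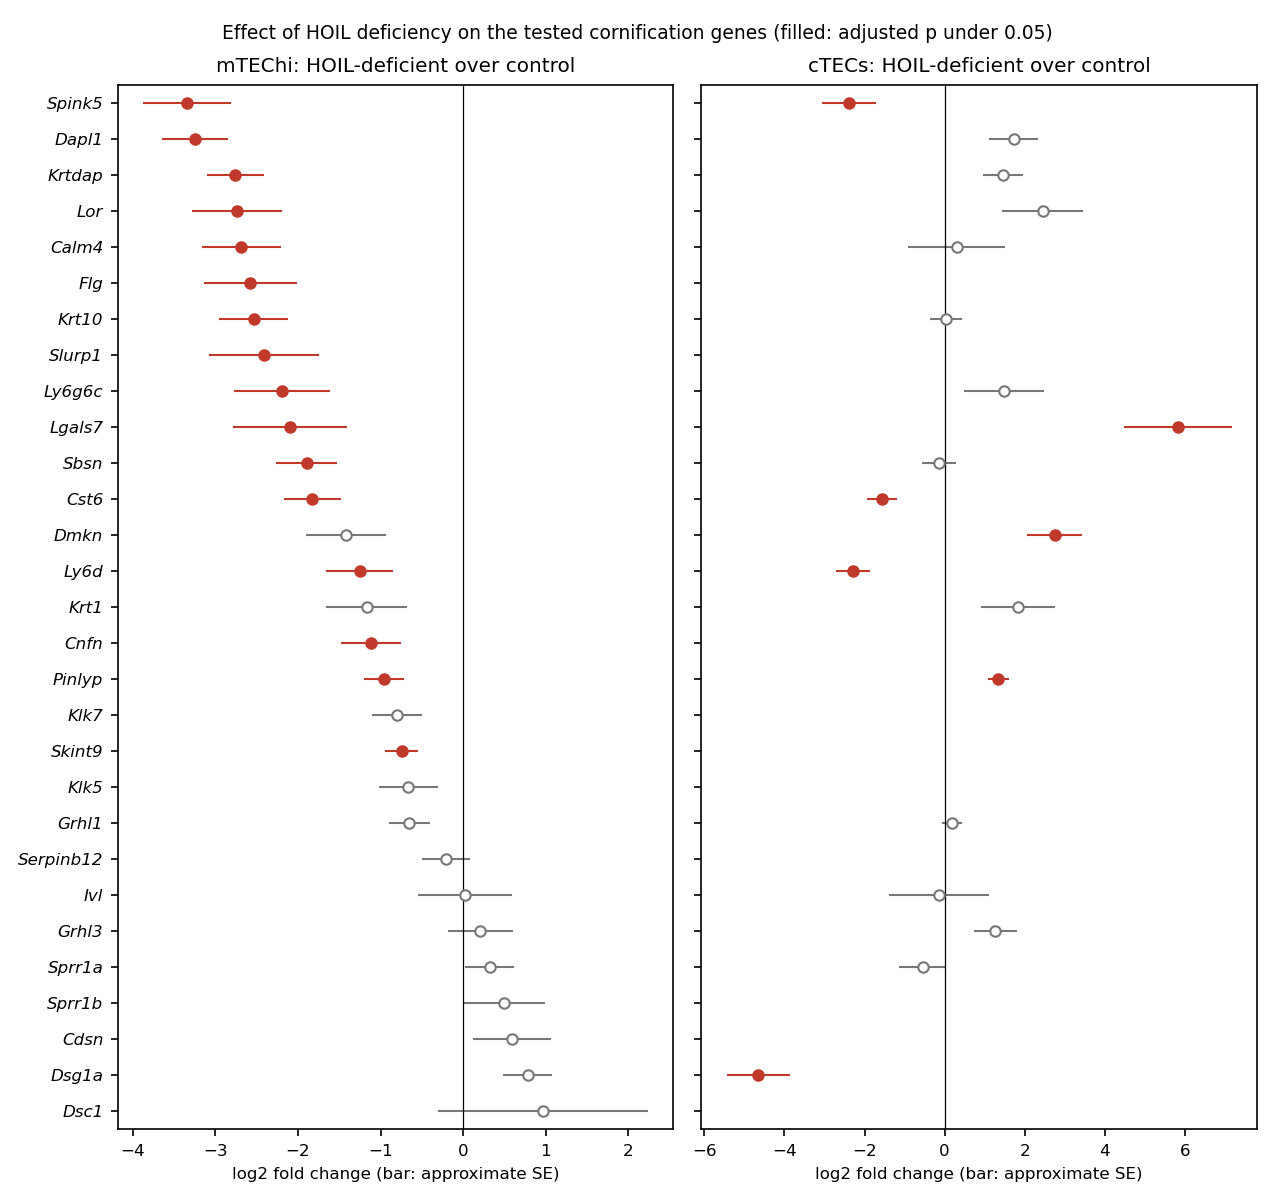
Log2 fold change of HOIL-deficient over control for the tested cornification genes in mTEChi (left) and cTECs (right), ordered by the value in mTEChi; bars are approximate SEs and filled points passed an adjusted p under 0.05. In cTECs, 10 genes at 0 in every library of a group are not drawn, among them Klk7, which was called lower. The values run from -3.34 for Spink5 to 0.97 for Dsc1 in mTEChi.

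Keratin 1 and keratin 10 pair into the filaments that replace those of basal cells once a keratinocyte leaves the basal layer. Krt10 was at 7.89, 6.26 and 14.4 CPM in HOIL-deficient mTEChi, against 88.2, 33.6 and 33.3 CPM in control mTEChi, so that its groups were clear of each other and control replicate 1 stood high. Its log2 fold change was -2.54 ± 0.416 (SE, adjusted p = 0.00141), and -1.84 without control replicate 1 (adjusted p = 0.00519). Its partner Krt1 was at 9.57, 5.04 and 9.67 CPM in HOIL-deficient mTEChi, against 20.7, 14.6 and 16.7 CPM in control mTEChi. These libraries did not overlap either, but the test was not passed (log2 -1.17 ± 0.488, adjusted p = 0.107; 0.0286 with DESeq2 and 0.0454 with limma-voom).

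The cornified envelope is built on a scaffold that involucrin (Ivl) starts, that loricrin (Lor) and small proline-rich proteins such as Sprr1a and Sprr1b reinforce, and that is filled with keratin bundled by filaggrin (Flg). Within this class, 3 of the 6 tested members fell and 3 did not pass. Lor was at 3.55, 3.74 and 1.61 CPM in HOIL-deficient mTEChi, against 30.1, 12.6 and 12.7 CPM in control mTEChi (log2 -2.74 ± 0.548, adjusted p = 0.00415; -2.14 and 0.0396 without control replicate 1). Flg was at 2.56, 1.03 and 2.10 CPM in HOIL-deficient mTEChi, against 14.4, 9.31 and 8.56 CPM in control mTEChi (log2 -2.58 ± 0.560, adjusted p = 0.0111). Both genes were separated by a wide gap, but the call of Flg rested on control replicate 1: without it the adjusted p was 0.0652. Cnfn, cornifelin, a minor component of the envelope, was at 24.9, 19.9 and 18.2 CPM in HOIL-deficient mTEChi, against 52.8, 30.4 and 46.1 CPM in control mTEChi (log2 -1.12 ± 0.362, adjusted p = 0.0477). Its HOIL-deficient libraries were close together below the spread of its control libraries. Sprr1a was at 206, 139 and 204 CPM in HOIL-deficient mTEChi, against 125, 153 and 144 CPM in control mTEChi (log2 0.32 ± 0.299, adjusted p = 0.487). Ivl was at 9.77, 19.4 and 16.6 CPM in HOIL-deficient mTEChi, against 12.9, 17.9 and 12.6 CPM in control mTEChi (log2 0.02 ± 0.568, adjusted p = 0.987). The ranges of both genes overlapped, as did those of Sprr1b (12.9 to 21.8 CPM in HOIL-deficient mTEChi, 10.03 to 15.7 CPM in control mTEChi). Flg2, a relative of filaggrin, was too low to be tested, with 1, 0 and 13 counts in HOIL-deficient mTEChi and 9, 13 and 17 counts in control mTEChi. Since Sprr1a and Sprr1b are close copies of each other, reads may have been split between them.

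Krtdap, Sbsn (suprabasin) and Dmkn (dermokine) are secreted proteins of the layers above the basal layer, and Dapl1 is a small intracellular protein associated with the start of epithelial differentiation. Dapl1 was at 13.6, 18.4 and 19.2 CPM in HOIL-deficient mTEChi, against 250.4, 89.3 and 115 CPM in control mTEChi (log2 -3.25 ± 0.397, adjusted p = 0.000256; -2.62 without control replicate 1). Krtdap was at 12.8, 15.9 and 25.5 CPM in HOIL-deficient mTEChi, against 164, 67.8 and 113 CPM in control mTEChi (log2 -2.76 ± 0.341, adjusted p = 0.000283). Sbsn was at 10.5, 9.81 and 10.5 CPM in HOIL-deficient mTEChi, against 53.4, 25.2 and 28.8 CPM in control mTEChi (log2 -1.89 ± 0.369, adjusted p = 0.00359). All 3 genes fell with no overlap, and control replicate 1 was the highest of its group each time. Among the HOIL-deficient libraries the standard deviation was 3.81% of the mean for Sbsn, 17.7% for Dapl1 and 36.6% for Krtdap. Sbsn overlaps the counted gene Gapdhs, so its reads may be shared. Dmkn was at 48.2, 57.3 and 56.3 CPM in HOIL-deficient mTEChi, against 158, 114 and 139 CPM in control mTEChi. Its groups were clear of each other, yet it just missed the threshold (log2 -1.42 ± 0.488, adjusted p = 0.0549). It passed with RLE scaling (adjusted p = 0.0456), with upper-quartile scaling (0.0474), with limma-voom (0.00447) and when mTEChi were fitted alone (0.000965).

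Cornified cells are held together by corneodesmosomes, made of the cadherins desmoglein 1 and desmocollin 1 and the secreted glycoprotein corneodesmosin (Cdsn). Of the 3 genes of this class 0 passed the test, and the log2 fold change of each was above 0. With 1 library left out it ranged from 0.62 to 0.97 for Dsg1a, from 0.11 to 0.80 for Cdsn and from -0.28 to 1.74 for Dsc1, so the sign of Dsc1 was not steady. Dsg1a was at 151, 153 and 193 CPM in HOIL-deficient mTEChi, against 68.9, 119.9 and 90.1 CPM in control mTEChi (log2 0.78 ± 0.296, adjusted p = 0.0776). Every HOIL-deficient library was above every control library, and the gene passed with limma-voom (0.0107 after adjustment) and when mTEChi were fitted alone (0.0119). Its close copies, with which it may share reads, had the same direction: Dsg1b was at 41.7 ± 7.32 CPM in HOIL-deficient mTEChi and 10.6 ± 3.47 CPM in control mTEChi, and Dsg1c at 6.03 ± 1.15 CPM in HOIL-deficient mTEChi and 1.53 ± 0.420 CPM in control mTEChi (SD, n = 3 each). Cdsn was at 21.2, 10.2 and 9.25 CPM in HOIL-deficient mTEChi, against 5.12, 10.8 and 10.3 CPM in control mTEChi, so that its groups overlapped. Dsc1 was barely detected, with at most 4.27 CPM in any library.

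Shedding of the outermost cells is driven by the kallikrein proteases Klk5 and Klk7, which cut corneodesmosomes, and is held back by the inhibitor LEKTI, the product of Spink5. Spink5 had the largest decrease of the 29 tested genes: 13.3, 16.5 and 19.8 CPM in HOIL-deficient mTEChi, against 205, 125 and 148 CPM in control mTEChi (log2 -3.34 ± 0.531, adjusted p = 0.00116). Cst6, which encodes cystatin M/E, an inhibitor of the cathepsins and legumain that act on envelope crosslinking, was at 105, 66.7 and 166 CPM in HOIL-deficient mTEChi, against 539, 266 and 319 CPM in control mTEChi (log2 -1.83 ± 0.348, adjusted p = 0.00318). Both inhibitors fell with no overlap between the groups. The intracellular serine protease inhibitor Serpinb12 was at 152, 124 and 124 CPM in HOIL-deficient mTEChi, against 141, 149 and 152 CPM in control mTEChi (log2 -0.21 ± 0.292, adjusted p = 0.665), a difference within its spread. Of the proteases, Klk7 was at 62.9, 69.7 and 41.9 CPM in HOIL-deficient mTEChi, against 84.2, 101 and 107 CPM in control mTEChi (log2 -0.80 ± 0.304, adjusted p = 0.0834). Its libraries did not overlap, and it passed with DESeq2 (adjusted p = 0.0129), with limma-voom (0.00879) and when mTEChi were fitted alone (0.0174). Klk5 overlapped, with 22.1 to 30.8 CPM in HOIL-deficient mTEChi and 19.2 to 58.5 CPM in control mTEChi.

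Calcium drives keratinocyte differentiation, and Calm4 is a calmodulin-like calcium-binding protein of mouse epidermis. Calm4 was at 30.6, 22.9 and 14.2 CPM in HOIL-deficient mTEChi, against 190.1, 106 and 115 CPM in control mTEChi (log2 -2.69 ± 0.481, adjusted p = 0.00232). Lgals7, galectin-7, a sugar-binding lectin of stratified epithelia, was at 5.72, 6.72 and 9.95 CPM in HOIL-deficient mTEChi, against 44.3, 18.9 and 27.0 CPM in control mTEChi (log2 -2.10 ± 0.689, adjusted p = 0.0456). Neither gene overlapped between the groups. For Lgals7 the call was lost when any of the 6 mTEChi libraries was left out, with adjusted p between 0.0514 and 0.22, and also with DESeq2 (0.137) and with no filter on low counts (0.0632).

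The LY6 group holds small disulfide-rich proteins of the cell surface or secretions, among them Slurp1, a secreted protein whose loss in human skin causes a palmoplantar keratoderma. All 4 of its members fell with no overlap between the groups. Ly6g6c was at 21.4, 16.9 and 16.7 CPM in HOIL-deficient mTEChi, against 74.6, 78.3 and 88.8 CPM in control mTEChi (log2 -2.20 ± 0.582, adjusted p = 0.0179). Slurp1 was at 11.5, 2.62 and 7.43 CPM in HOIL-deficient mTEChi, against 44.9, 25.8 and 38.1 CPM in control mTEChi (log2 -2.41 ± 0.665, adjusted p = 0.0254). Ly6g6c was tight within each group and Slurp1 was not, and neither was called with DESeq2 (adjusted p = 0.103 for Ly6g6c and 0.0839 for Slurp1). Ly6d was at 281, 182 and 309.9 CPM in HOIL-deficient mTEChi, against 554, 593 and 615 CPM in control mTEChi (log2 -1.25 ± 0.406, adjusted p = 0.0435; 0.0984 with no filter on low counts). Pinlyp, a LY6-domain inhibitor of phospholipases, was at 55.3, 33.3 and 47.1 CPM in HOIL-deficient mTEChi, against 73.4, 89.5 and 91.2 CPM in control mTEChi (log2 -0.96 ± 0.245, adjusted p = 0.0148). Ly6d remained the highest of the 30 genes per length in HOIL-deficient mTEChi.

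Skint9 belongs to a family of immunoglobulin-like membrane proteins of thymus and skin in mice. It was at 78.7, 104 and 86.0 CPM in HOIL-deficient mTEChi, against 142, 151 and 137 CPM in control mTEChi, the smallest called decrease (log2 -0.75 ± 0.200, adjusted p = 0.0222). Its relatives did not all share that direction: Skint3 was at 19.4 ± 10.9 CPM in HOIL-deficient mTEChi and 58.7 ± 8.34 CPM in control mTEChi, while Skint10 was at 721 ± 83.5 CPM in HOIL-deficient mTEChi and 483 ± 51.7 CPM in control mTEChi (SD, n = 3 each). Reads may be shared within this family. Grhl1 and Grhl3 are Grainyhead-like transcription factors of epithelial barrier formation. Neither passed the test: Grhl1 was at 22.5, 15.3 and 22.9 CPM in HOIL-deficient mTEChi, against 25.4, 36.9 and 29.5 CPM in control mTEChi (log2 -0.65 ± 0.251, adjusted p = 0.0834), and Grhl3 was at 31.5 to 33.6 CPM in HOIL-deficient mTEChi and 16.5 to 36.8 CPM in control mTEChi. Grhl1 did not overlap and passed with DESeq2 (adjusted p = 0.0253), whereas Grhl3 overlapped.

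**Figure D4:**
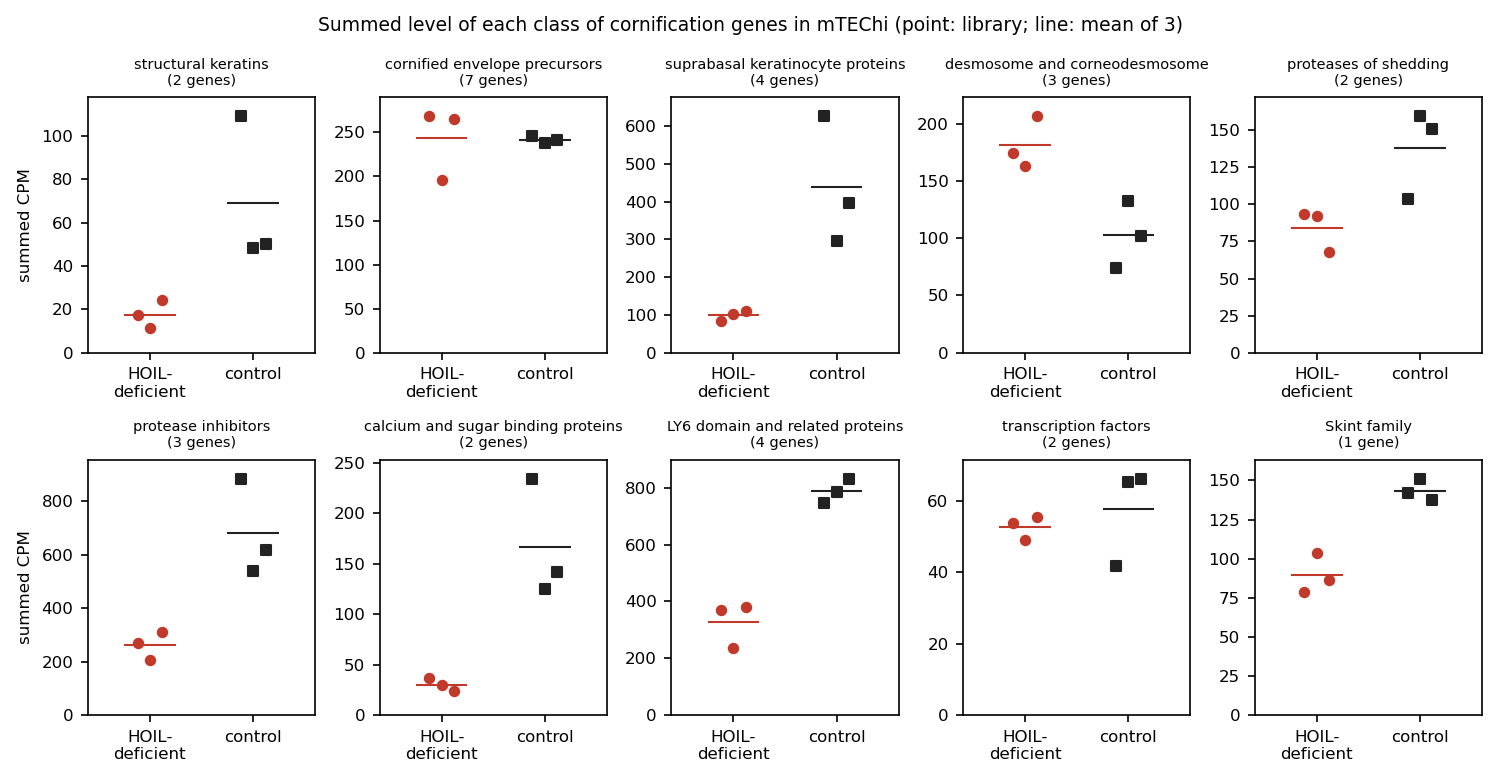
Summed CPM of each class of cornification genes in HOIL-deficient (circles, left) and control (squares, right) mTEChi, with 1 point per library and a line at the mean; each panel starts at 0. The suprabasal keratinocyte proteins held 85.1 to 112 CPM in HOIL-deficient and 296 to 626 CPM in control mTEChi, whereas the cornified envelope precursors, led by Sprr1a, held 196 to 268 and 238 to 246 CPM.

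Of the 16 calls, 8 held under every alternative run: Calm4, Cst6, Dapl1, Krt10, Krtdap, Lor, Sbsn and Spink5. The other calls were lost in at least 1, and the number of genes called lower fell to 9 without control replicate 1 or control replicate 3, to 10 without HOIL-deficient replicate 2 or 3, and to 11 without the female libraries. Without control replicate 1 the adjusted p was 0.2 for Cnfn, 0.111 for Ly6d, 0.0584 for Ly6g6c, 0.115 for Slurp1 and 0.0655 for Skint9. Without control replicate 3 it was 0.138 for Cnfn, 0.102 for Ly6d, 0.0621 for Ly6g6c, 0.0748 for Slurp1, 0.0572 for Pinlyp and 0.057 for Skint9, and without control replicate 2 it was 0.0834 for Ly6d and 0.0569 for Skint9. Leaving out HOIL-deficient replicate 1 gave 0.08 for Cnfn, 0.0915 for Ly6d and 0.0881 for Skint9. Leaving out HOIL-deficient replicate 2 gave 0.131 for Cnfn, 0.159 for Ly6d, 0.0651 for Ly6g6c, 0.0808 for Slurp1 and 0.0679 for Pinlyp. Leaving out HOIL-deficient replicate 3 gave 0.132 for Cnfn, 0.0687 for Ly6d, 0.0603 for Ly6g6c, 0.0708 for Slurp1 and 0.0673 for Skint9. In each of these cases the direction was unchanged.

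Markers of some other cell types moved as well. In mTEChi, 7 of 10 endothelial markers were higher with HOIL deficiency, among them Pecam1 (log2 2.82) and Kdr (2.99), and their sum was 188 to 586 CPM in HOIL-deficient and 82.5 to 108 CPM in control libraries, although the sort removed CD31-positive cells. Of 10 fibroblast and pericyte markers 2 were higher, with a sum of 630.4 to 827 CPM in HOIL-deficient mTEChi and 298 to 372 CPM in control mTEChi, and of 15 thymocyte markers 0 were called (0 higher and 0 lower at an unadjusted p under 0.05). No marker of these 3 lists was at 0 in a whole mTEChi group. Of 12 B and myeloid cell markers 0 were called, with a sum of 896 to 1110 CPM in HOIL-deficient mTEChi and 759 to 1199 CPM in control mTEChi. Of 7 adipocyte markers 6 were tested and 1 was higher. Their sum was 1021 to 1421 CPM in HOIL-deficient mTEChi and 889 to 1971 CPM in control mTEChi. Tuft mimetic cells, another medullary mimetic type, had 5 of 10 markers lower, among them Trpm5 (log2 -1.46) and Il25 (-3.08), and a sum of 207 to 232 CPM in HOIL-deficient mTEChi against 334 to 546 CPM in control mTEChi. The part of these shifts in the levels of cornification genes was not tested. Aire did not pass the test in mTEChi (log2 0.22, adjusted p = 0.709), nor did Fezf2 (log2 0.77, adjusted p = 0.175).

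Other genes of epidermal differentiation were followed from lists set beside the 30. These lists were chosen with earlier results of these data known, so their counts describe them and do not test them. Over all tested genes, 11.3% were called higher and 8.59% lower. Of 44 further cornified envelope and barrier genes, 0 were higher and 15 lower in HOIL-deficient mTEChi, with a median log2 fold change of -0.97 (0 higher at an unadjusted p under 0.05). Sprr2a1, a small proline-rich protein of another branch than Sprr1a, was at 95.3 ± 31.7 CPM in HOIL-deficient mTEChi and 510.3 ± 65.1 CPM in control mTEChi (SD, n = 3 each; log2 -2.48, adjusted p = 0.00101). Repetin (Rptn), a filaggrin-type envelope protein, was at 41.4 ± 13.6 CPM in HOIL-deficient mTEChi and 229 ± 46.8 CPM in control mTEChi (log2 -2.55, adjusted p = 0.00202). The other lower genes named by the smallest p were Elovl4 (log2 -1.39), which makes very long fatty acids of the skin barrier, Spink12 (-4.16), the filaggrin-processing protease Asprv1 (-1.39) and Lypd3 (-1.87). Transcriptional and Notch regulators of keratinocyte differentiation had 0 higher and 8 lower of 21 tested (0 higher at an unadjusted p under 0.05). Klf4, which is needed for the mouse skin barrier, was at 23.1 ± 6.24 CPM in HOIL-deficient mTEChi and 67.8 ± 20.2 CPM in control mTEChi (log2 -1.64, adjusted p = 0.00447), and Cebpb (-1.17), Hopx (-1.53), Notch1 (-1.14) and Hes1 (-1.28) were lower too. Of 22 genes of stratified and wet-surface epithelia, 3 were higher, near the share over all tested genes, and 6 lower. Desmoplakin (Dsp, log2 -1.64), Sfn (-1.14), Anxa8 (-1.46) and Krt23 (-2.04) fell, while the desmosomal cadherins Dsc3 (1.33) and Dsc2 (0.67) rose. Of 14 medullary regulators, Tnfrsf11a (0.87), which encodes RANK, and Ctsl (0.65) were higher, also near that share, and 0 were lower (0 at an unadjusted p under 0.05).

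In cTECs the 30 genes were low, with a sum of 108 to 123 CPM in HOIL-deficient and 144 to 324 CPM in control libraries, and most of it came from Ly6d, Cst6, Grhl1, Krt10 and Pinlyp. For HOIL deficiency 8 of the 29 tested genes were called, 3 higher and 5 lower, against 12.1% of all tested genes, 6.06% higher and 6.02% lower. Of these 8, Lgals7, Dsg1a and Klk7 passed the filter on low counts only through their counts in mTEChi. A fit of cTECs alone did not test them and called 1 cornification gene higher and 2 lower, against 828 and 567 of all 14878 genes tested there. The libraries did not overlap for 4 genes that were all higher and for 4 that were all lower, against 15.9% and 12% of all tested genes. The 4 higher include Lor, for which HOIL-deficient replicate 1 and control replicates 1 and 3 each had 1 count and differed only by library total. Pinlyp was at 17.3, 23.0 and 17.3 CPM in HOIL-deficient cTECs, against 4.60, 7.93 and 8.99 CPM in control cTECs (log2 1.34 ± 0.263, adjusted p = 0.00554), the opposite direction to mTEChi. Dmkn was at 0.829, 12.4 and 6.33 CPM in HOIL-deficient cTECs, against 1.38, 1.01 and 0.310 CPM in control cTECs (log2 2.75 ± 0.686, adjusted p = 0.0198), and its groups overlapped. That call was lost without HOIL-deficient replicate 2 (log2 1.94, adjusted p = 0.0767), control replicate 2 (0.0515) or control replicate 3 (0.0801). Lgals7 had 0, 46 and 48 counts in HOIL-deficient cTECs, against 1, 0 and 0 counts in control cTECs, so its groups overlapped at 0 and its ratio over the summed counts was 85.1 (95% counting interval 14.9 to 3396). Its test was passed (adjusted p = 0.0135), but not without control replicate 3 (0.0557).

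Among the genes lower in HOIL-deficient cTECs, Ly6d was at 34.1, 19.4 and 32.4 CPM, against 249, 63.3 and 79.1 CPM in control cTECs (log2 -2.29 ± 0.426, adjusted p = 0.00411). The fall held without control replicate 1, the high library, at a log2 fold change of -1.39 (adjusted p = 0.00306). Cst6 was at 9.59, 7.17 and 10.03 CPM in HOIL-deficient cTECs, against 31.9, 16.9 and 25.3 CPM in control cTECs (log2 -1.56 ± 0.370, adjusted p = 0.0155), and missed the threshold without HOIL-deficient replicate 2 (0.0572). Both genes were clear of overlap and were lower in mTEChi as well. Dsg1a had 1, 1 and 0 counts in HOIL-deficient cTECs, against 14, 28 and 8 counts in control cTECs (adjusted p = 0.00232), and Klk7 had 0 counts in HOIL-deficient cTECs, against 14, 2 and 3 counts in control cTECs (adjusted p = 0.012), which makes it at least 6.997-fold lower. Control replicate 1 held 14 of the 19 control counts of Klk7, and without it the fitted log2 fold change was -4.58, against -5.77 with it (adjusted p = 0.0313 without it). For Dsg1a the ratio over the summed counts was 0.0362 (95% counting interval 0.00427 to 0.138). Its fitted log2 fold change was -4.66, and -3.97 without HOIL-deficient replicate 3 or -3.91 without control replicate 2. Spink5 was at 2.13, 0 and 1.13 CPM in HOIL-deficient cTECs, against 4.88, 9.32 and 1.86 CPM in control cTECs, with overlap (log2 -2.40 ± 0.674, adjusted p = 0.0333; -3.15 without HOIL-deficient replicate 1). It was lost without HOIL-deficient replicate 2 (0.0702), HOIL-deficient replicate 3 (0.0825), control replicate 1 (0.0576) or control replicate 2 (log2 -1.77, adjusted p = 0.132). Krtdap and Dapl1 were higher in all 3 HOIL-deficient cTEC libraries, at 1.89 to 2.37 CPM against 0.504 to 0.930 CPM in control cTECs for Krtdap and 1.78 to 2.36 CPM against 0.207 to 1.13 CPM for Dapl1, but passed only with DESeq2 (adjusted p = 0.0219 and 0.0132; 0.0738 and 0.0858 with edgeR). Conversely, limma-voom did not call Dmkn (0.127), Lgals7 (0.142), Spink5 (0.0844) or Cst6 (0.121) in cTECs.

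The makeup of the cTEC libraries differed too, and its part in these values was not tested. With HOIL deficiency, 13 of 15 thymocyte markers were lower (sum 467 to 914 CPM in HOIL-deficient and 1161 to 4060 CPM in control cTECs), and 9 of 10 endothelial, 6 of 10 fibroblast and pericyte and 6 of 6 tested adipocyte markers were higher. The fibroblast and pericyte markers summed to 2577 to 3696 CPM in HOIL-deficient cTECs and 153 to 1376 CPM in control cTECs. Keratins of basal cells rose, with Krt14 at 346 ± 60.6 CPM in HOIL-deficient cTECs and 48.9 ± 16.9 CPM in control cTECs (SD, n = 3 each; log2 2.73, adjusted p = 2.78e-05), and Krt5 (log2 1.57, adjusted p = 0.0298). Of the 44 further envelope and barrier genes 2 were higher, Calml3 and Klk8, and 3 lower, Ppl, Sprr2a1 and Asprv1. That is 11.4% called in either direction, near the 12.1% of all tested genes (6.06% higher and 6.02% lower).

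A test of the difference between the effects of HOIL deficiency, mTEChi minus cTECs, called 10 of the 29 tested genes, 2 higher and 8 lower, against 9.84% of all tested genes, 5.97% higher and 3.86% lower (1159 and 749 genes; 714 and 873 with RLE scaling, 651 and 899 with upper-quartile scaling). The 2 higher were Dsg1a and Klk7, which were lower with HOIL deficiency in cTECs and not called in mTEChi. The 8 lower were Krt10, Lor, Krtdap, Dmkn, Dapl1, Lgals7, Slurp1 and Pinlyp. The call of Klk7 was lost without any 1 of the HOIL-deficient cTEC libraries, HOIL-deficient mTEChi replicate 1 or 2, control cTEC replicate 1 or any 1 of the control mTEChi libraries (adjusted p between 0.0539 and 0.087). That of Slurp1 was lost without HOIL-deficient cTEC replicate 2 (0.145), control cTEC replicate 2 (0.0504) or 3 (0.0586), HOIL-deficient mTEChi replicate 3 (0.055), or control mTEChi replicate 1 (0.0658) or 3 (0.0568), and also with the replicate block (0.0526; 0.121 with the block within genotype) and in males only (0.0543). That of Lor was lost in males only (0.0581). Spink5, Cst6 and Ly6d, which were called lower in both cell types, were not called for a difference (log2 -0.95 ± 0.875, -0.27 ± 0.501 and 1.04 ± 0.573; adjusted p = 0.529, 0.802 and 0.265), which does not show that the effects were equal. The call of Spink5 in cTECs was lost under 9 of 14 alternatives and that of Cst6 in cTECs under 2. The call of Ly6d in mTEChi was lost under 8.

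The genes were also compared between mTEChi and cTECs. In control mice all 29 tested genes were higher in mTEChi than in cTECs, against 37.8% of all tested genes (64.2% called, 26.4% lower), and the call of Dsc1 was lost without any 1 of the control cTEC libraries or control mTEChi replicate 2 or 3 (adjusted p between 0.0533 and 0.0795). This count is no support for the list, because 7 of the 30 genes reached the filter minimum in every control cTEC library, so most passed through the mTEChi in which they were high. The same limit holds for the count in HOIL-deficient mice given below, since 8 of the 30 reached that minimum in every HOIL-deficient cTEC library. Serpinb12 was at least 1398-fold higher in control mTEChi than in control cTECs, where it had 0 counts, and Skint9 at least 1365-fold. The smallest steps were those of Grhl1, 1.84-fold (95% counting interval 1.64 to 2.06), Krt10, 3.75-fold (3.35 to 4.20), and Ly6d, 4.21-fold (4.06 to 4.35). These genes were also counted in every control cTEC library. Those libraries held thymocyte markers too (sum 1161 to 4060 CPM), and the part of other cells in these counts was not tested. Without control mTEChi replicate 1 the log2 fold change of Krt10 was 1.32, against 2.02 with it, and without control cTEC replicate 1 that of Ly6d was 3.14, against 2.25. In HOIL-deficient mice 26 of 29 were higher in mTEChi than in cTECs, against 32.0% of all tested genes (48.4% called, 16.4% lower), and 3 were not called: Krt10 (log2 -0.56 ± 0.404), Grhl1 (0.10 ± 0.251) and Lgals7 (1.52 ± 0.713). Lgals7 passed without HOIL-deficient cTEC replicate 2 (log2 2.08, adjusted p = 0.0471), and Dsc1 was lost without HOIL-deficient mTEChi replicate 3 (0.0561). Krt10 was at 6.26 to 14.4 CPM in HOIL-deficient mTEChi and at 13.5 to 17.5 CPM in HOIL-deficient cTECs, so that the medullary excess seen in control mice was not found. Krtdap was 8.88-fold (6.90 to 11.6) and Dapl1 8.53-fold (6.58 to 11.2) higher in HOIL-deficient mTEChi than in HOIL-deficient cTECs, against 156-fold (102 to 253) and 273-fold (168 to 478) in control mice. The fitted log2 fold change of Dapl1 between the control groups was 8.16, and 8.87 without control cTEC replicate 2 or 7.51 without control mTEChi replicate 1. These intervals cover counting error only.

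Some of the genes lie in clusters. On GRCm38.p6, 6 of them, Lor, Sprr1b, Sprr1a, Ivl, Flg2 and Flg, lie within 1.21 Mb of chromosome 3 (92080271 to 93293689), the epidermal differentiation complex. Of these 6, Lor and Flg were lower in HOIL-deficient mTEChi, Sprr1b, Sprr1a and Ivl were not called, and Flg2 was not tested. Other genes of this stretch were not placed, so these calls do not describe it as a whole. On chromosome 7, Sbsn, Dmkn and Krtdap are direct neighbours with gaps of 7.62 and 6.84 kb (30732674 to 30791089). All 3 had HOIL-deficient mTEChi libraries below the control libraries, and Sbsn and Krtdap were called lower while Dmkn was not called. Klk7 and Klk5 lie 17.8 kb apart on the same chromosome (43811294 to 43851181), and both were not called. The HOIL-deficient mTEChi libraries lay below the control libraries for Klk7 and overlapped them for Klk5. On chromosome 15, Slurp1 and Ly6d lie 34.0 kb apart (74726644 to 74763567), and both fell in mTEChi.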

How the data were processed

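RNA from sorted thymic epithelial cells was made into SMART-Seq v4 and Nextera XT libraries and sequenced as read pairs, per the labels' protocols. The authors deposited raw read counts per gene with Entrez gene IDs and counted lengths for each of 12 libraries. Per the submitters' processing notes, featureCounts and mm10 were used; for the aligner, its settings and all versions, not given in the sources used here.

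The members and lists were chosen with earlier results of these data known. Named genes were all members and, in each other list, up to 6 called genes of smallest p, with Rbck1, Aire and Fezf2; 1 gene that this rule names is not reported here. Genes were kept by the edgeR filter on low counts over the 4 groups, which left 19398, and 1 list symbol was unmatched. A model with 1 coefficient per group was fitted with edgeR 4.0.16 (TMM scaling, robust quasi-likelihood F test) in R 4.3.3, with Benjamini-Hochberg adjusted p over all tested genes and a threshold of 0.05. SEs are the log2 fold change over the square root of F. Levels are CPM of library totals, and RPKM from counted lengths. Folds against a group at 0 use a floor of 3 counts over the group, and 95% counting intervals are exact binomial and cover counting error only. Alternatives were RLE and upper-quartile scaling, no filter, DESeq2 1.42.0, limma-voom (limma 3.58.1), a replicate block, fits within 1 cell type, male libraries only, and each library left out in turn. Same-numbered libraries correlated at -0.16 to 0.098 after removal of group means, so numbers were not taken as pairs. Between HOIL-deficient mTEChi and cTECs, same-numbered libraries correlated at 0.0348 to 0.0781 and differently numbered ones at -0.0599 to 0.0189. Between the control groups these ranges overlapped (-0.0367 to 0.098 and -0.0555 to 0.0627). The labels do not say whether mTEChi and cTEC libraries share animals. No 2 libraries held identical values. The labels do not say that replicates came from separate animals, and the p-values then reflect only how these samples vary, which may be technical. On simulated data for HOIL deficiency in mTEChi over 18998 genes, 36 of 50 genes raised by 2 log2 units and 31 of 50 lowered by 2 were recovered, against 10 of 50 raised by 1 and 7 of 49 lowered by 1. Of the unchanged genes 7 were called. Only 200 genes were set to change, whereas 19.9% of genes were called in the data. The adjustment is stricter when few genes change, so these shares do not give the recovery in the real contrast. Promoters are from RefSeq (GRCm38.p6) and positions from the same build.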

Additional observations from a re-analysis of the deposited data

Results flagged for a closer look

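The effects of HOIL deficiency in mTEChi and in cTECs differed for 10 cornification genes by the interaction term of the edgeR quasi-likelihood test, given here as the log2 effect in mTEChi minus that in cTECs with its SE. The difference was -2.58 ± 0.572 for Krt10 (adjusted p = 0.0144), -5.19 ± 1.11 for Lor (0.0124) and -4.21 ± 0.590 for Krtdap (0.00149). It was -4.17 ± 0.842 for Dmkn (0.0096), -4.97 ± 0.710 for Dapl1 (0.00171) and -2.30 ± 0.359 for Pinlyp (0.00276). For Krtdap, Lor, Dapl1 and Pinlyp, all 3 HOIL-deficient libraries were below all 3 control libraries in mTEChi and above them in cTECs. For Lor in cTECs this order is not a difference in counts throughout. HOIL-deficient replicate 1 and control replicates 1 and 3 each had 1 count, set apart only by library totals (0.118 against 0.0921 and 0.103 CPM). For Dsg1a the difference was 5.44 ± 0.838 (adjusted p = 0.00261) and for Klk7 4.97 ± 1.36 (0.0396).

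The difference was -7.92 ± 1.50 for Lgals7 (adjusted p = 0.00721) and -7.93 ± 2.02 for Slurp1 (0.0301). Lgals7, Slurp1, Klk7, Dsg1a and Lor each had few or no counts in a cTEC group, so the sizes of these 5 differences depend on the prior count of the fit. In cTECs, Lor had 1, 6 and 8 counts in HOIL-deficient libraries and 1, 0 and 1 in control libraries. Without control mTEChi replicate 1 the difference was -1.91 for Krt10 and -4.37 for Dapl1, without control cTEC replicate 2 it was -5.69 for Dapl1 and 4.70 for Dsg1a, and without HOIL-deficient cTEC replicate 2 it was -3.35 for Dmkn. It was 4.76 for Dsg1a without HOIL-deficient cTEC replicate 3, 3.78 for Klk7 (no longer called) and -9.86 for Lgals7 without control cTEC replicate 1, and -5.90 for Slurp1 (no longer called) without HOIL-deficient cTEC replicate 2.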

How the results depend on the processing

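No called value of a cornification gene changed sign under any alternative. With 1 library left out, genes called for HOIL deficiency numbered 1944 to 3116 in mTEChi (3858 with all), with 9 to 13 cornification genes lower (16 with all), and 1340 to 2306 in cTECs (2342 with all), with 1 to 3 higher and 3 to 5 lower. The difference between cell types called 949 to 2088 genes (1908 with all), with 1 to 2 cornification genes higher and 7 to 10 lower. In mTEChi the 0 cornification genes called higher became 1 with limma-voom and in a fit of mTEChi alone. In cTECs the 3 called higher became 6 with DESeq2, 1 with limma-voom and 1 in a fit of cTECs alone, and the 5 called lower became 3 with limma-voom and 2 in a fit of cTECs alone. In the fit of cTECs alone, Dmkn and Spink5 lost their calls (adjusted p = 0.0912 and 0.177). Lgals7, Dsg1a and Klk7 did not pass its filter on low counts and were not tested there. Those genes entered the main fit through their counts in mTEChi. Genes called in cTECs fell to 1395 in a fit of cTECs alone and to 1540 in males only, and those called for the difference to 1030 in males only. The 2 cornification genes called higher for the difference became 1 with RLE scaling, upper-quartile scaling, limma-voom, the replicate block, the block within genotype and males only. With the replicate block, 14 cornification genes were lower in mTEChi, Cnfn (adjusted p = 0.0624) and Lgals7 (0.075) being lost, and in cTECs 4 were lower. The cause was not tested. RLE and upper-quartile scaling moved the median log2 fold change of all genes in mTEChi to -0.11. Genes under a few CPM, such as Flg2, Dsc1 and most cornification genes in cTECs, are limited by depth.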
